A study of Mus musculus with 12 samples.

Results

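Hox genes of the mouse lie in 4 clusters, Hoxa on chromosome 6, Hoxb on chromosome 11, Hoxc on chromosome 15 and Hoxd on chromosome 2. All genes on the arrays whose symbol was Hoxa, Hoxb, Hoxc or Hoxd followed by a number were taken, whatever their level. This gave 33 genes of the 19494 with a symbol, namely 8 Hoxa, 9 Hoxb, 9 Hoxc and 7 Hoxd genes. Each of the 33 had 1 probe set. Of 39 such genes in RefSeq, 6 had no probe set here under their symbol, among them Hoxa7, Hoxa9 and Hoxb4. RNA came from haematopoietic stem cells (HSC) and multipotent progenitors (MPP) of untreated mice, sorted as lineage-negative, Sca-1-positive, Kit-positive (LSK) marrow cells that were CD150+ CD48- for HSC and CD150- CD48+ for MPP. The 3 knockout mice (KO) were Nfat5 fl/fl Vav-Cre and the 3 control mice (WT) were Nfat5 +/+ Vav-Cre, so that both genotypes carried the Cre, whose Vav promoter drives it in blood cells from their origin onward. The labels used here give no ages. Each mouse gave 1 HSC and 1 MPP array, and the 4 groups of 3 arrays were KO HSC, WT HSC, KO MPP and WT MPP. All levels below are the authors' log2 intensities after RMA, a normalization that brings all arrays to 1 distribution.

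Hox proteins are homeodomain transcription factors that give cells their position along the body axis in the embryo. They bind DNA together with partners of the TALE homeodomain class (PBX and MEIS), trithorax and MLL complexes keep their genes active, and Polycomb complexes keep them silent. In marrow, Hoxa and Hoxb genes are known to be most active in immature cells, and forced expression of several of them expands stem cells or blocks maturation. NFAT5 is a transcription factor of the osmotic stress response, which binds sites built on TGGAAA. The labels state no question about Hox genes, and the design allows KO to be set against WT within each population and HSC against MPP within each mouse.

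The promoters of Hoxb8, Hoxa5, Hoxa10 and Hoxd8, whose levels are described below for each array, are shown because their windows differ in the motifs they hold. They are RefSeq windows of 300 bases around the start of transcription in the GRCm38.p6 build, written 5' to 3' on the strand of the gene. Capitals mark matches to TGGAAA, the core of the NFAT5 site, or to TGATNNAT, the site of a PBX and HOX pair, on either strand.
Hoxb8, chr11:96281655-96281954, plus strand: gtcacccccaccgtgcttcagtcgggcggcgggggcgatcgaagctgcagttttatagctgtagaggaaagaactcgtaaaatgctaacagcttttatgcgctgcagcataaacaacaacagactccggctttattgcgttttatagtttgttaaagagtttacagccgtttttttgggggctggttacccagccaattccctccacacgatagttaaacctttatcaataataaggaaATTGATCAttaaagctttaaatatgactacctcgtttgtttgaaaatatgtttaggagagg
Hoxa5, chr6:52204538-52204837, minus strand: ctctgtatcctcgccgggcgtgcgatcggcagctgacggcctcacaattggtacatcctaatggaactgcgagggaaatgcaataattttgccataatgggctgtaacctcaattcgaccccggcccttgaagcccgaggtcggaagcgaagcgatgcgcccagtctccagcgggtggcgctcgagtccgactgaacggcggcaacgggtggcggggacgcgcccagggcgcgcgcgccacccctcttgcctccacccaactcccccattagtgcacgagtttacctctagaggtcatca
Hoxa10, chr6:52234890-52235189, minus strand: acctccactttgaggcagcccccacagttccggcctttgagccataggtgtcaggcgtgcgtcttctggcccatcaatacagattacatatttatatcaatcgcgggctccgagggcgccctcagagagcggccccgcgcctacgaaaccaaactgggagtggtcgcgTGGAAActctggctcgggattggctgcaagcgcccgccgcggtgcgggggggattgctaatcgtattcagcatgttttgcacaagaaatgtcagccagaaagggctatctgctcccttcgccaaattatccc
Hoxd8, chr2:74704365-74704664, plus strand: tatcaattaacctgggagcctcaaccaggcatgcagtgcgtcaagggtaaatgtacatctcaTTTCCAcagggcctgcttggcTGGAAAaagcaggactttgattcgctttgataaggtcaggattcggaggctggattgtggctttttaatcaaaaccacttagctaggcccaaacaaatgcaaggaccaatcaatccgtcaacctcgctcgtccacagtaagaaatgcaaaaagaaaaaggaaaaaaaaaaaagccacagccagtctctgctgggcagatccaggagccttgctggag
The Hoxb8 window held 1 TGATNNAT match on the opposite strand, that of Hoxa5 held neither motif, that of Hoxa10 held 1 TGGAAA match, and that of Hoxd8 held 2, 1 on each strand. A further start of Hoxa10, chr6:52240805-52241104, held neither. RefSeq windows were matched for 17 of the 33 genes, 19 windows in all, and none of these held both motifs. TGGAAA was found in 6 of the 19 windows (31.6%), against 21.4% of 32851 windows of the same length over all genes, and TGATNNAT in 4 of 19 (21.1%), against 8.85%. The Hox windows held a median of 20 CG pairs, against 7 over all windows. Such matches describe the sequence and say nothing of binding.

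The arrays differed little as a whole, with medians of 5.81 to 5.915. The HSC array of KO mouse 2 had the widest deviations from its group mean (SD 0.438 over genes, against 0.276 to 0.378 on the other arrays). As the mean of both populations, Nfat5 was 7.43 ± 0.036 in KO animals and 8.32 ± 0.16 in WT animals (SD, n = 3 mice each), and the two-sided exact permutation test gave p = 0.1, the smallest that 3 against 3 allows. Where its probe set lies relative to the deletion is not stated. Markers of the 2 sorted populations differed between them. Over both genotypes 5 of 10 HSC markers were higher and 0 lower in HSC, among them Slamf1, which encodes CD150, at a log2 difference of 2.36, and 5 of 5 MPP markers were lower, among them Cd48 at -3.00. The shares over all genes tested were 1.93% higher and 2.92% lower. The cells were sorted on CD150 and CD48, so the differences of Slamf1 and Cd48 follow from the sort and are no separate check. Of the HSC markers called, Tie1 did not pass with the mouse as a block. In these bulk samples fewer cells of a type and less RNA per cell cannot be told apart.

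The 23 Hox genes that passed the filter on low values (a mean over all 12 arrays above 4.955, which left out the lowest 25% of genes) had means of 4.99 to 6.70, and the other 10 had means of 4.02 to 4.74. Passing were Hoxa2, Hoxa4, Hoxa5, Hoxa6, Hoxa10, Hoxa11 and Hoxa13, Hoxb1, Hoxb2, Hoxb3, Hoxb5, Hoxb6, Hoxb7 and Hoxb8, Hoxc4, Hoxc5, Hoxc6, Hoxc9 and Hoxc13, and Hoxd1, Hoxd8, Hoxd12 and Hoxd13. Probe sets differ in affinity, so these levels do not rank the genes, and detection calls were not used here. Arrays of a group differed by a median SD of 0.202 for the 23 genes, against 0.241 for the 7989 genes in the same range of means. Hoxd1 (SD 0.0908) and Hoxa13 (0.0996) varied least among replicates, and Hoxa2 (0.474) and Hoxa10 (0.402) varied most.

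Hoxb6 was called higher in HSC than in MPP by the model that left out the pairing by mouse, but not with the mouse as a block. Most other Hox genes leaned the same way by small amounts that did not pass the test singly. So did 69.3% of all genes tested with means in the range of the tested Hox genes. Hoxb6 (gene ID 15414), a gene whose forced expression expands stem cells and myeloid precursors in mouse marrow, read 5.25, 5.93 and 5.20 in KO HSC (mice 2, 11 and 70) and 4.996, 5.34 and 5.26 in WT HSC (mice 3, 12 and 64). It read 4.76, 4.67 and 4.80 in KO MPP and 4.69, 4.66 and 4.61 in WT MPP. Every HSC array stood above every MPP array, the highest HSC value was that of KO mouse 11, and all MPP values lay below the cut-off for testing, so that the gene was tested through its HSC values. The mean was 5.33 ± 0.32 in HSC and 4.70 ± 0.071 in MPP (SD, n = 6 arrays each), a log2 difference of 0.63 (SE 0.14, 95% interval 0.33 to 0.93) or 1.55-fold. By limma over both genotypes its adjusted p was 0.0240 over all 14620 genes tested. It was the 1 Hox gene of 23 called higher (0 called lower), where 1.93% of all genes tested were called higher and 2.92% lower. It was also the 1 Hox gene whose HSC and MPP arrays did not overlap, where 1.85% of all genes did so with HSC higher and 2.36% with HSC lower. With no filter on low values its adjusted p was 0.0252. With the mouse as a block it was 0.0774, and after a further quantile normalization it was 0.0615, both with all arrays in use. Leaving out any 1 mouse but KO mouse 70 took it to between 0.0525 and 0.123. The call thus depended on the model, the normalization and the mice used. In RefSeq Hoxb6 and Hoxb5 both overlap Hoxb5os, and since the strand and position of the probes are not given here, their signals cannot be told apart from it.

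**Figure D1:**
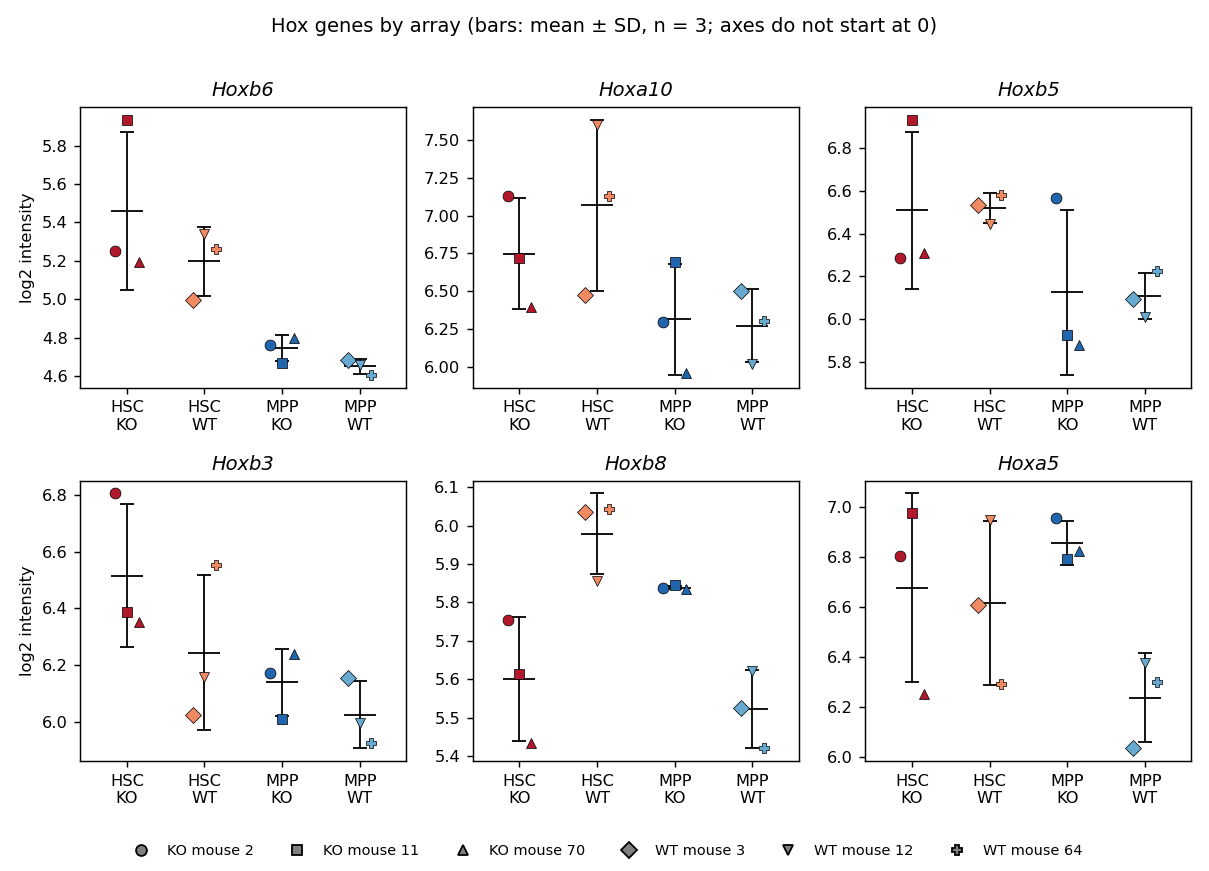
Log2 intensity (y axes, which do not start at 0) of 6 Hox genes on each of the 12 arrays, by group (x axes), with bars for mean ± SD (n = 3) and a symbol for each mouse. All 6 HSC values of Hoxb6 lie above its 6 MPP values, while the KO values of Hoxb8 lie below the WT values in HSC and above them in MPP.

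The other genes with roles in blood stood as follows. Hoxa10 (gene ID 15395), which promotes growth of stem and progenitor cells and perturbs myeloid and lymphoid maturation when forced, read 7.13, 6.72 and 6.40 in KO HSC and 6.48, 7.60 and 7.13 in WT HSC. Its MPP values were 6.30, 6.69 and 5.96 in KO and 6.50, 6.02 and 6.30 in WT. HSC and MPP overlapped, since KO mouse 70 and WT mouse 3 had low HSC values. The log2 difference of 0.61 (SE 0.21) was close in size to that of Hoxb6 but had an adjusted p of 0.145 in limma.

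Hoxb5, a marker of long-term repopulating stem cells in the mouse, read 6.28, 6.93 and 6.31 in KO HSC and 6.53, 6.45 and 6.58 in WT HSC. In MPP it read 6.57, 5.93 and 5.88 in KO and 6.09, 6.01 and 6.22 in WT. In WT the HSC and MPP values did not overlap, and in KO the order was turned in mouse 2 alone, whose MPP array was high. Over both genotypes the difference was 0.40 (SE 0.16, adjusted p = 0.191). Hoxb3, whose forced expression impairs lymphoid development, averaged 6.38 ± 0.28 in HSC and 6.08 ± 0.12 in MPP (SD, n = 6 arrays each), a difference of 0.30 (SE 0.13, adjusted p = 0.231), with HSC higher in 5 of 6 mice. Its span in RefSeq overlaps Hoxb4, Hoxb3os and Mir10a. Hoxb2, a hindbrain patterning gene, differed by 0.11 (SE 0.095) and Hoxa5, known for its part in lung and axial skeleton formation, by 0.10 (SE 0.15), both within the spread between arrays.

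Over the whole family, 20 of the 23 tested genes had a positive difference between HSC and MPP, and 29 of all 33. The median was 0.13 over those tested and 0.11 over all 33. The shares that follow are of genes tested, and none was taken over genes below the filter. Positive differences were also the rule among other genes at these levels, at 69.3% of the 7989 genes with means in the range of the Hox genes tested (median 0.094) and 57.2% of all genes tested (median 0.047). At an unadjusted p under 0.05, 9 of 23 were higher and 0 lower, where 11.1% of genes in that range and 9.61% of all genes were higher and 10% of all genes lower. These 9 were Hoxb6, Hoxa10, Hoxb5 and Hoxb3, with Hoxc9, Hoxc13, Hoxc5, Hoxa13 and Hoxd8, whose differences were 0.22 to 0.34 and whose adjusted p were 0.145 to 0.236. Hoxb6 and Hoxc5 passed the filter only through their HSC values, which bears on these counts. By cluster, 6 of 7 tested Hoxa genes, 7 of 7 Hoxb, 4 of 5 Hoxc and 3 of 4 Hoxd lay above 0, with medians of 0.10, 0.23, 0.29 and 0.11 in that order. The 3 below 0 were Hoxa2 at -0.19, Hoxc4 at -0.11 and Hoxd1 at -0.051. Genes of 1 cluster share regulatory regions and may share transcripts, so these counts are not counts of independent events.

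**Figure D2:**
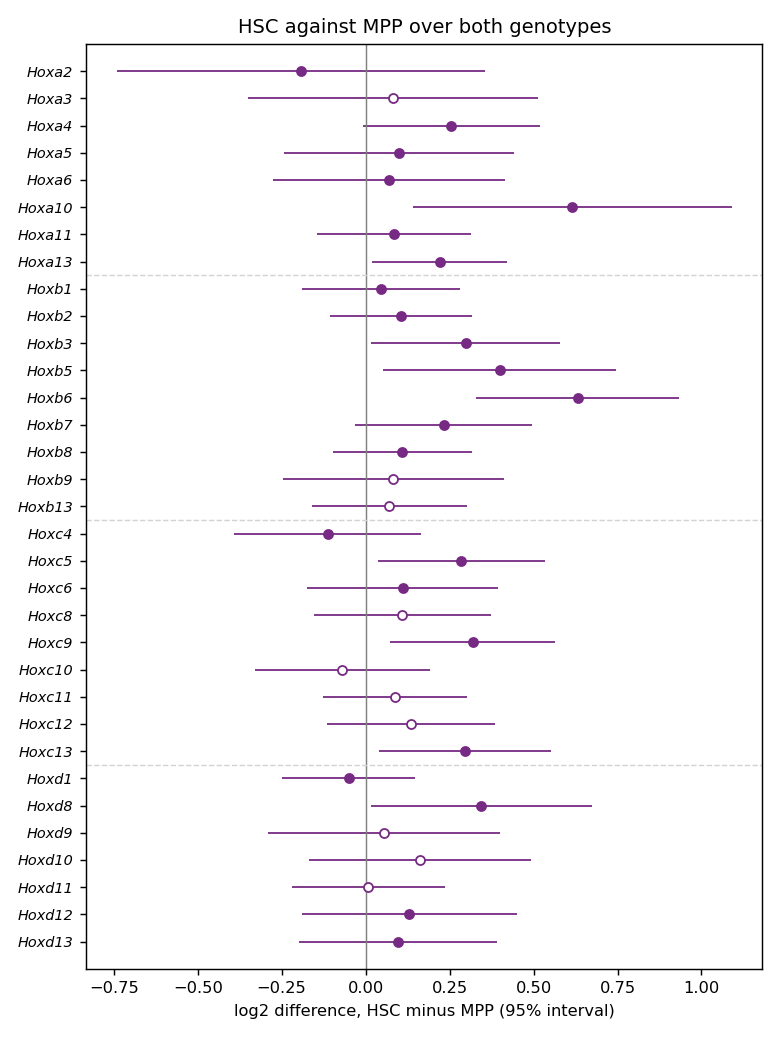
Log2 difference between HSC and MPP over both genotypes (x axis, HSC minus MPP, with its 95% interval) for each of the 33 Hox genes (y axis, by cluster). Filled points passed the filter on low values and open points did not, and 29 of 33 points lie to the right of 0. Of all genes tested with means in the range of the filled points, 69.3% lay above 0. No such share was taken below the filter.

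Within mice, 5 of the 23 genes were higher in the HSC than in the MPP of all 6 animals, namely Hoxb6, Hoxc9, Hoxa13, Hoxc5 and Hoxa4, and 0 were lower in all 6. Hoxb6 and Hoxc5 had MPP means of 4.70 and 4.85, below the cut-off of 4.955, and were tested through their HSC values. Over all genes tested these shares were 7.73% and 6.19%, and in the range of the Hox genes 9.11% were higher in all 6. For Hoxb6 the differences within a mouse were 0.49, 1.26 and 0.40 in KO mice 2, 11 and 70 and 0.31, 0.68 and 0.65 in WT mice 3, 12 and 64. Hoxc9, a gene of trunk patterning, was more even, with 0.42, 0.27 and 0.35 in the KO mice and 0.13, 0.30 and 0.45 in the WT mice. Hoxa13, which shapes the digits and the urogenital tract, had smaller differences still, 0.24, 0.12 and 0.069 in KO and 0.46, 0.24 and 0.19 in WT. Hoxa4 was just above 0 in 3 mice, with 0.0059 in KO mouse 11, 0.069 in WT mouse 12 and 0.0052 in WT mouse 64.

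**Figure D3:**
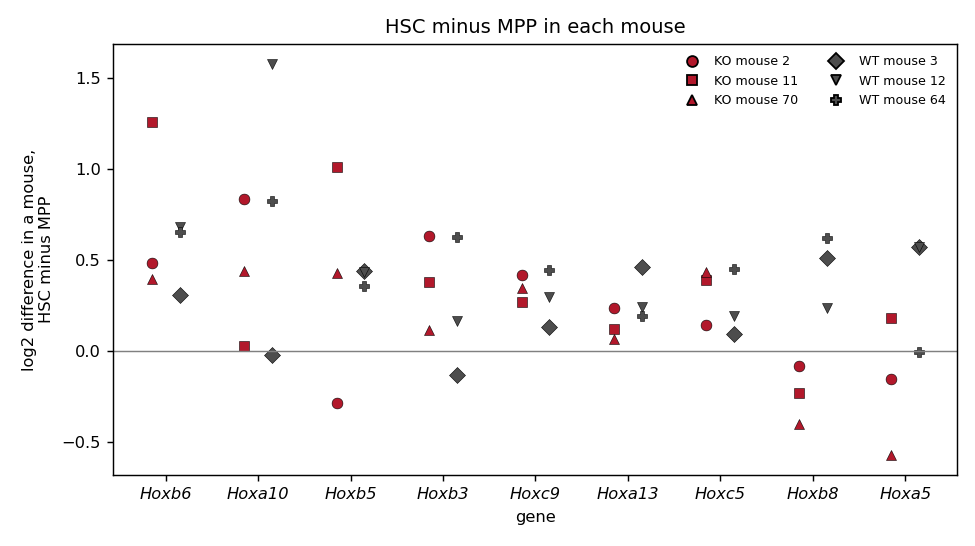
Log2 difference between the HSC and the MPP array of each mouse (y axis) for 9 Hox genes (x axis), with KO mice in red on the left and WT mice in grey on the right of each gene. Hoxb6, Hoxc9, Hoxa13 and Hoxc5 lie above 0 in all 6 mice, and Hoxb8 lies below 0 in the 3 KO mice and above 0 in the 3 WT mice.

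Within 1 genotype 0 of 23 Hox genes passed in limma. In KO mice, where 184 genes or 1.26% passed, the lowest p among Hox genes was that of Hoxb6 at a log2 difference of 0.72 (SE 0.19, adjusted p = 0.124), followed by Hoxc9 at 0.35 (adjusted p = 0.407) and Hoxa4 at 0.37 (adjusted p = 0.413). In WT mice, where 302 genes or 2.07% passed, they were Hoxb8 at 0.46 (SE 0.13, adjusted p = 0.137), Hoxb6 at 0.55 (adjusted p = 0.224) and Hoxa10 at 0.80 (adjusted p = 0.260). At an unadjusted p under 0.05, 1 of 23 Hox genes was higher in HSC of KO mice and 0 lower (6.04% and 6.31% of all genes), and 4 were higher in HSC of WT mice and 0 lower (6.36% and 7.75%). Differences lay above 0 for 18 of 23 in KO mice, against 57.1% of all genes and 66.1% of those in the same range of means, and for 19 of 23 in WT mice, against 54.2% and 65%. HSC and MPP values did not overlap, with HSC higher, for 7 of 23 Hox genes in KO mice (9.77% of all genes) and 6 of 23 in WT mice (11% of all genes, with 10.3% lower). The 1 Hox gene whose HSC values all lay below its MPP values was Hoxb8 in KO mice (7.33% of all genes).

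Hoxb8 differed between KO and WT in opposite directions in the 2 populations, without passing the test over all genes. Hoxb8 (gene ID 15416), which holds myeloid progenitors in an immature state when forced on, read 5.75, 5.61 and 5.43 in KO HSC, against 6.04, 5.86 and 6.04 in WT HSC. In MPP it read 5.84, 5.84 and 5.84 in KO, against 5.53, 5.62 and 5.42 in WT. The groups did not overlap in either population. The difference between KO and WT was -0.38 in HSC (SE 0.13, adjusted p = 0.697 in limma) and 0.32 in MPP (SE 0.13, adjusted p = 0.99991). The interaction, the difference in HSC minus that in MPP, was -0.69 (SE 0.19), with an adjusted p of 0.884 over all genes in limma. Of all genes tested, 61 or 0.417% were likewise separated in both populations in opposite directions. As the mean of both populations, Hoxb8 was 5.72 ± 0.081 in KO animals and 5.75 ± 0.026 in WT animals (SD, n = 3 mice each), which overlapped. With any 1 mouse left out the difference was -0.455 to -0.295 in HSC and 0.265 to 0.366 in MPP. Its sign could not change in these fits, because the groups did not overlap.

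In MPP the other tested Hox gene with an unadjusted p under 0.05 in limma was Hoxa5 (gene ID 15402). Its loss by antisense in human marrow progenitors shifts them toward the erythroid lineage. Hoxa5 read 6.96, 6.79 and 6.82 in KO MPP, against 6.04, 6.38 and 6.30 in WT MPP. The KO values all lay above the WT values, as they did for 4.82% of all genes tested. The log2 difference was 0.62 (SE 0.22, 95% interval 0.14 to 1.10) or 1.54-fold, with an adjusted p of 0.99991. In HSC it read 6.80, 6.98 and 6.25 in KO, against 6.61, 6.95 and 6.29 in WT. These overlapped (difference 0.06, SE 0.22), and the interaction was -0.56 (SE 0.31, adjusted p = 0.99962). In RefSeq the span of Hoxa5 overlaps those of Hoxa3 and Hoxaas3.

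Over the family 0 of 23 Hox genes passed between KO and WT in HSC or in MPP, in the interaction or over both populations, and neither did any other gene tested (0% called in each). At an unadjusted p under 0.05 there was 1 Hox gene lower in KO HSC (Hoxb8) and 0 higher, where 2.81% of all genes were lower and 3.47% higher. In MPP there were 2 higher (Hoxa5 and Hoxb8) and 0 lower, where 1.40% were higher and 1.79% lower. Differences were spread around 0, with 13 of 23 above 0 in HSC (53.4% of all genes) and 13 of 23 in MPP (50.5%), and medians of 0.0098 and 0.020. KO and WT arrays were fully separated in HSC for 1 of the 23 tested Hox genes (Hoxb8, lower). Of all genes tested, 5.15% were separated with KO higher and 3.72% with KO lower (8.87% in all). In MPP they were separated for 4 Hox genes (Hoxa5, Hoxa13 and Hoxb8 higher, Hoxd8 lower), where 4.82% of all genes were higher and 4.66% lower (9.49% in all). In the interaction 1 Hox gene (Hoxb8) had an unadjusted p under 0.05, against 4.5% of all genes, and over both populations 0 did, against 4.45%. Over both populations 0 Hox genes were separated, against 8.69% of all genes. The 95% intervals differed in width among the 23 genes. In HSC the interval was narrowest for Hoxd1, from -0.15 to 0.41, and widest for Hoxa2, from -1.23 to 0.33, and for Hoxb5 it ran from -0.50 to 0.48 around -0.012.

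Some patterns within single clusters can be given as values. The 4 tested Hoxd genes all read lower in KO than in WT MPP. The differences were -0.038 for Hoxd1, -0.18 for Hoxd8, -0.17 for Hoxd12 and -0.21 for Hoxd13, each with a 95% interval that includes 0. Of all genes tested, 50.5% lay above 0 in this comparison, and so did 13 of the 23 tested Hox genes. Of all 7 Hoxd genes measured 1 lay above 0, Hoxd10 at 0.015, which was below the filter. For Hoxd8 the 3 KO MPP values of 5.28, 5.42 and 5.25 lay below the WT values of 5.49, 5.51 and 5.48. In HSC it read 5.60, 5.18 and 5.96 in KO and 6.16, 5.55 and 6.05 in WT, which overlapped (difference -0.34, SE 0.21, adjusted p = 0.885). Hoxb3 read 6.81, 6.39 and 6.35 in KO HSC and 6.02, 6.16 and 6.55 in WT HSC, a difference of 0.27 (SE 0.18, adjusted p = 0.897). Among the 10 genes below the filter, Hoxa3, needed for the thymus and parathyroid, read 4.40, 4.44 and 4.17 in KO HSC, against 5.79, 4.83 and 5.02 in WT HSC. The groups did not overlap, and WT mouse 3 stood highest. When no filter was set, the difference of -0.88 (SE 0.28) had an adjusted p of 0.715 in limma. In MPP Hoxa3 averaged 4.68 ± 0.41 in KO and 4.71 ± 0.30 in WT (SD, n = 3).

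**Figure D4:**
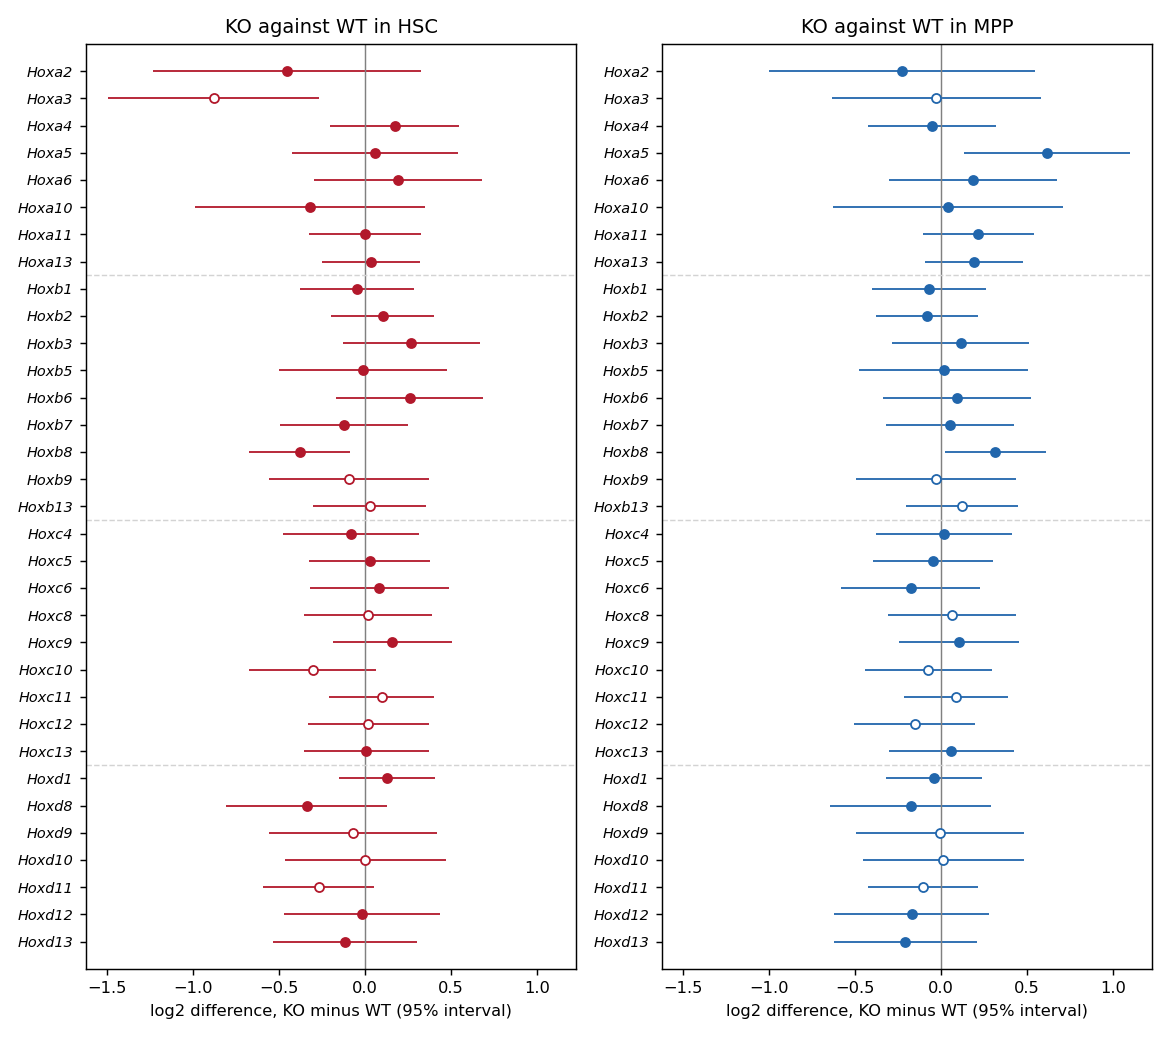
Log2 difference between KO and WT (x axes, KO minus WT, with 95% intervals) for the 33 Hox genes (y axes) in HSC on the left and MPP on the right, open points marking genes below the filter. Among filled points the intervals of Hoxb8 in HSC and of Hoxa5 and Hoxb8 in MPP leave out 0, before adjustment over all genes.

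Some regulators and targets of Hox proteins had larger differences between HSC and MPP than any of the 33 Hox genes, among them Mllt3, Aldh1a1 and Flt3. Means over all arrays were 4.99 to 6.70 for the tested Hox genes, 8.68 for Mllt3, 6.59 for Aldh1a1 and 7.22 for Flt3. RMA compresses differences of weak probe sets, so sizes at unlike levels do not rank the genes. Of the TALE cofactors 1 of 7 tested passed over both genotypes, where 1.93% of all genes tested were called higher in HSC and 2.92% lower. Meis1, the partner that stem cells need for their maintenance, averaged 10.66 ± 0.10 in HSC and 10.17 ± 0.18 in MPP (SD, n = 6 arrays each), a difference of 0.49 (SE 0.10, adjusted p = 0.0201 in limma, but 0.0781 with the mouse as a block). Of 17 trithorax and MLL activators 1 passed. Mllt3, a reader protein of the super elongation complex that maintains human stem cells in culture, averaged 10.01 ± 0.29 in HSC and 7.36 ± 0.69 in MPP, a difference of 2.65 (SE 0.30, adjusted p = 0.000594, and 0.0106 with the block).

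Of 21 Polycomb genes 3 were lower in HSC and 0 higher, with 2.92% and 1.93% of all genes tested called in these directions. Ezh2 and Suz12, the methyltransferase and a core subunit of Polycomb repressive complex 2, had differences of -0.91 (adjusted p = 0.0281) and -1.18 (adjusted p = 0.0335). Bap1, an enzyme that removes the ubiquitin mark set by Polycomb repressive complex 1, had -0.41 (adjusted p = 0.0443). With the mouse as a block Suz12 still passed (adjusted p = 0.0094), and Ezh2 (0.0539) and Bap1 (0.107) did not. Of 13 retinoic acid genes 2 were higher in HSC, Aldh1a1, which makes retinoic acid, at 2.55 (adjusted p = 0.000738) and the receptor gene Rarb at 0.78 (adjusted p = 0.0449, but 0.0803 with the block).

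Of 14 genes known as targets of HOXA9 and MEIS1, 2 were higher in HSC and 5 lower, against 1.93% and 2.92% of all genes tested. Mecom at 1.49 and Hlf at 0.74, both stem cell transcription factors, were higher. The cytokine receptor gene Flt3 at -3.35, Cd34 at -1.78, the cell cycle kinase gene Cdk6 at -1.12, the survival gene Bcl2 at -0.97 and Sox4 at -0.64 were lower, with adjusted p of 5.03e-05 to 0.0171 for these 7. Sox4 did not pass with the block (adjusted p = 0.0519). Flt3, Cd34, Mecom and Hlf also serve as markers of the 2 populations. Among 17 genes that flank the clusters 0 passed, with 2 higher and 2 lower at an unadjusted p under 0.05 (9.61% and 10% of all genes tested), and the lowest adjusted p were those of Cbx1 (0.0797) and Nfe2 (0.101). Of 22 other homeobox genes 1 passed, the chromatin organiser gene Satb1 at -3.49 (adjusted p = 0.00016). Satb1 is also among the MPP markers.

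**Figure D5:**
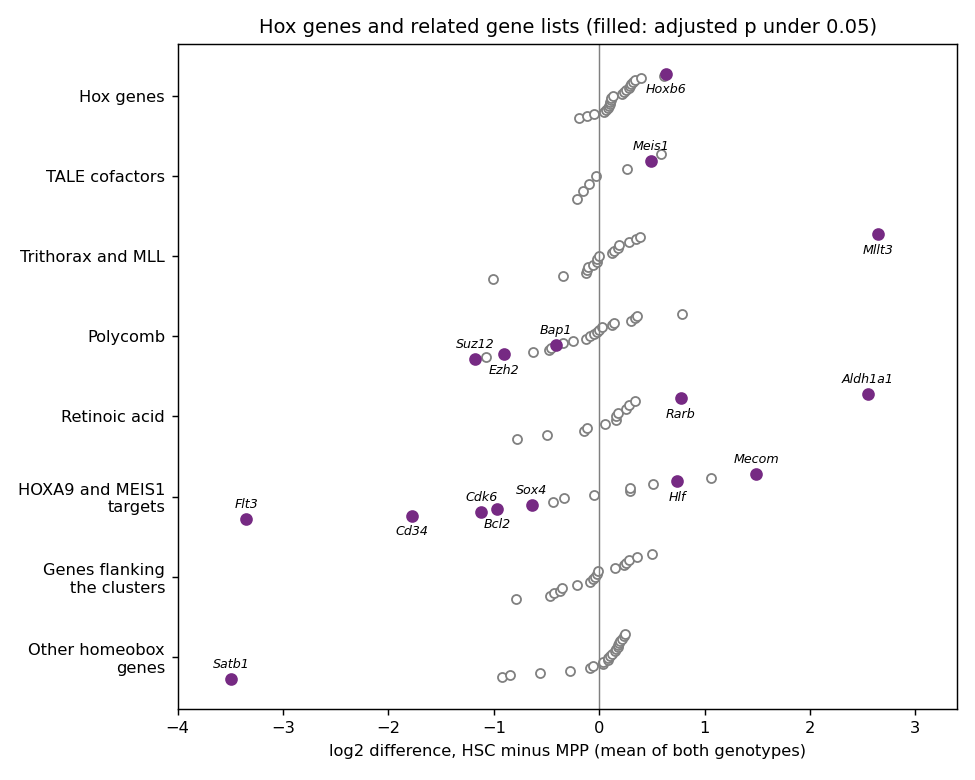
Log2 difference between HSC and MPP over both genotypes (x axis, HSC minus MPP) for the tested members of the Hox family and of 7 related lists (y axis), each point a gene, filled and named where the adjusted p was under 0.05. Hox differences lie between -0.193 and 0.631, whereas Mllt3, Aldh1a1, Flt3 and Satb1 lie beyond 2 in size. Levels differ among these genes, and RMA compresses differences of weak probe sets.

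Between KO and WT 0 members of these 7 lists passed in HSC or in MPP. In HSC the lowest p were those of Bcl2 at -0.81 (SE 0.19, adjusted p = 0.523) and Bap1 at 0.57 (SE 0.14, adjusted p = 0.551). Pbx3, a TALE cofactor, ranged from 4.04 to 8.99 in KO HSC, against 4.16 to 4.62 in WT HSC, and from 3.67 to 4.74 in KO MPP, against 4.15 to 7.85 in WT MPP, and the genotypes overlapped in both populations. In MPP the lowest p was that of Tgif2, a TALE repressor gene, at 1.97 (SE 0.36, adjusted p = 0.99991).

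Markers of other cell types also differed between HSC and MPP. Counts here are calls over both genotypes among the markers that passed the filter on low values, and sums are over all that were measured. Of all genes tested, 1.93% were called higher in HSC and 2.92% lower. Of the B cell markers 3 of 6 were lower in HSC, and the summed linear intensity of all 7 was 427.5 to 539.1 in KO HSC and 429.5 to 542.6 in WT HSC, against 775.3 to 1134 in KO MPP and 843.9 to 1162 in WT MPP. Of 7 endothelial and stromal markers, cell types that themselves use Hox genes, 2 were lower in HSC (Pecam1 and Pdgfrb) and 0 higher. The summed intensity of all 11 was 828.3 to 934.6 in KO HSC and 828.3 to 913 in WT HSC, against 812.5 to 876.2 in KO MPP and 931.2 to 1091 in WT MPP. Monocyte and macrophage markers gave 2 of 5 lower, T and NK cell markers 1 of 3 lower, dendritic cell markers 1 of 7 lower (Flt3), and erythroid and neutrophil markers 0 of 4 and 0 of 9. These counts are from the model without the pairing by mouse. With the mouse as a block the B cell marker Igll1, the stromal marker Pdgfrb and the monocyte and macrophage markers Ly86 and Csf1r were no longer called. The neutrophil sum ranged most among mice, from 735.6 to 4958 in KO HSC and from 1071 to 5642 in WT HSC, against 768.8 to 1885 in KO MPP and 346.3 to 2057 in WT MPP. RMA values have no true 0, and the part of these cells in the Hox differences was not tested.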

How the data were processed

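RNA of sorted HSC and MPP from 3 KO and 3 WT mice was profiled on 12 arrays. Per the labels' protocols, NuGEN kits were used to amplify and label picogram amounts of total RNA. The authors deposited RMA-normalized log2 intensities for each probe set, per the submitters' processing notes. These name RMA and limma without versions. RMA removes shifts of the whole transcriptome and compresses differences of weak probe sets. Scanner files were not used, so precision rests on the number of arrays.

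Of 22142 probe sets, 19527 had 1 symbol in the platform annotation and 2615 none. The probe set with the highest mean was kept per gene (19494 genes), the lowest 25% by mean were left out, and 14620 genes were tested. Group means were fitted in 1 limma model over all 12 arrays (R 4.3.3, limma 3.58.1, statmod 1.5.0), with two-sided moderated tests, Benjamini-Hochberg adjustment over all genes tested and a threshold of 0.05. KO against WT over both populations used the mean of each mouse. The fit was tested on simulated data. Figures were drawn with matplotlib 3.10.9.

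HSC and MPP arrays pair by animal, since the labels give the mouse of each array. Deviations from the group mean correlated by 0.032 to 0.091 between arrays of a mouse. One alternative took the mouse as a block, fixed for HSC against MPP and random for KO against WT. Others were the filter (none, or the lowest 50%), the mean of probe sets, a further quantile normalization, trended and robust variances, array weights, only the arrays compared, no HSC array of KO mouse 2, and each mouse left out. Named are Nfat5, the Hox genes that passed, the 3 with the lowest p in each comparison, those with known roles in blood, and the list members that passed or had the 2 lowest p. Other Hox genes named with values (such as Hoxa3, Hoxa13 and Hoxd1) were chosen after their values were seen. The members and the lists were chosen with earlier results of these data known.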

Additional observations from a re-analysis of the deposited data

Results flagged for a closer look

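Hoxb8 had its KO values below all WT values in HSC and above all WT values in MPP, and was flagged for this arrangement. Of all genes tested, 61 or 0.417% were separated in opposite directions in this way. The interaction was -0.694 on the log2 scale (SE 0.188), and it did not pass the adjustment over all 14620 genes (adjusted p = 0.884 in limma, 0.822 to 0.99998 over 13 alternatives). The HSC value lay below the MPP value in 3 of 3 KO mice and above it in 3 of 3 WT mice. Its 3 KO MPP values had an SD of 0.00479, against 0.161 in KO HSC, 0.106 in WT HSC and 0.101 in WT MPP. The cause was not tested.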

How the results depend on the processing

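Values of the named Hox genes and of Nfat5 were recomputed under up to 15 alternatives. In all, 586 kept their direction and, for the Hox genes, their side of the threshold, 7 lost the call and 18 changed sign. The Hox value called at the outset was that of Hoxb6 between HSC and MPP over both genotypes, so the others had no call to lose. For Nfat5, and for Hoxb8 between KO and WT within a population, the groups did not overlap. Leaving out a mouse could not change the sign of these. The 7 all belong to Hoxb6 between HSC and MPP over both genotypes. It fell short after a further quantile normalization (0.54, adjusted p = 0.0615) and with the mouse as replicate block (0.631, adjusted p = 0.0774), and with single mice left out it ranged from 0.494 to 0.711 (adjusted p 0.0422 to 0.123). The count of Hox genes called there thus went to 0 in these fits and when the lowest 50% of genes were left out, which removes Hoxb6 from testing (range 0 to 1 with mice left out). Over all genes, 302 calls between WT HSC and WT MPP became 180 with the block and 70 to 297 with a mouse left out. The 184 calls in KO became 113 with the block, 79 with only the arrays compared, 106 with no HSC array of KO mouse 2 and 57 to 168 with a mouse left out, and the 709 over both genotypes became 379 to 524. Between KO and WT HSC the count was 0 to 1. The sign changes were of small differences, with these ranges when a mouse was left out. In KO against WT HSC, Hoxa5 (0.06) ranged from -0.102 to 0.273 and Hoxb5 (-0.012) from -0.224 to 0.1. With no HSC array of KO mouse 2 they were -0.00321 and 0.1, and with array weights Hoxb5 was 0.0258. In KO against WT MPP, Hoxa10 (0.0419) ranged from -0.146 to 0.22, Hoxb2 (-0.0828) from -0.166 to 0.0049, and Hoxb5 (0.0157) from -0.207 to 0.139, with -0.0467 under array weights. Hoxa5 between KO HSC and KO MPP (-0.18) ranged from -0.362 to 0.0159, the interaction of Hoxb6 (0.167) from -0.107 to 0.327, and Hoxb8 over both populations (-0.0311) from -0.0688 to 0.0115. The cause was not tested. The block changed no other call of a Hox gene. Between HSC and MPP over both genotypes, related genes and cell markers were recomputed only with the block and without the filter. The block ended the calls of Meis1, Ezh2, Bap1, Rarb and Sox4 (adjusted p 0.0519 to 0.107) and of the markers Igll1, Pdgfrb, Tie1, Ly86 and Csf1r (0.0509 to 0.132). Without the filter Rarb had an adjusted p of 0.05. Only the arrays compared was not run over both genotypes, where all arrays are compared. Detection calls were not used, so how far the Hox values stood above background is not known here.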
